A study of Mus musculus with 6 samples.

Results

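The ephrins, semaphorins, slits and netrins are guidance ligands that act at or near the cell surface, and the Eph receptors, plexins, neuropilins, Robo proteins and Unc5 proteins are their receptors. Their genes were examined in mouse E14TG2a ES cells, embryonic stem cells kept undifferentiated by leukaemia inhibitory factor (LIF). Members were chosen by gene symbol in the platform annotation of the array, 1 probe set per gene (that with the highest mean value across the 6 arrays). This gave 67 of the 18193 named genes. The 3 differentiating samples came from cultures without LIF for 3 days, from which FACS took the 5T4-positive cells. The 3 undifferentiated samples came from cultures with LIF (1000 units per ml), from which the 5T4-negative cells were taken. 5T4 is a cell surface glycoprotein. LIF withdrawal and the 5T4 sort therefore changed together and cannot be told apart. All samples were the same line, grown on gelatin in medium with serum or serum replacement, with no engineered allele named in the labels. The sources do not say whether the replicates were separate cultures, and p-values here refer to the spread among these samples, which may be technical.

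Guidance molecules were described first as cues that attract or repel growing axons, and they are also known for controlling cell adhesion, sorting and migration in early embryos and blood vessels. Ephrins are membrane-bound and bind Eph receptor tyrosine kinases on the neighbouring cell, and signals can pass into both cells. Class 3 semaphorins are secreted and in most cases bind a neuropilin with a plexin as the signalling partner, slits bind Robo receptors, and netrins bind DCC, neogenin and the Unc5 proteins.

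Values are log2 RMA values, in which background correction, normalization between arrays and summary per probe set had been done by the authors. A difference of 1 on this scale is a doubling. The comparison was fitted with limma over 45037 probe sets, with p-values adjusted by Benjamini-Hochberg across all these probe sets, and a gene passed at an adjusted p under 0.1. A gene was called higher or lower when its log2 fold change (differentiating minus undifferentiated) was also at least 1 in size. Where the word called is absent, higher or lower gives only the direction of a difference. The medians of the arrays lay between 5.54 and 5.65. The table holds no detection calls, so 43 probe sets of olfactory receptor genes served as a reference for low signal, and the 95th percentile of their means was 5.37. In 21 of the 67 members the mean of both groups was at or below this value, and 46 members lay above it in at least 1 group. The number of arrays limits the precision throughout.

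The defining markers of ES cells were present in both groups. The 8 defining ES cell markers had a mean level of 12.04 to 12.36 on the undifferentiated arrays and 11.66 to 11.82 on the differentiating arrays, of which Pou5f1 and Sox2 were lower and 6 did not pass. None of 7 primitive streak and mesoderm markers, 9 primitive and visceral endoderm markers, 7 endothelial markers and 10 fibroblast markers passed in either direction. Of these, 4, 6, 4 and 5 were near the low-signal reference in both groups. Groups that did not overlap were seen for Dab2 (log2 fold change 1.96), Dcn (0.66), Pdgfra (0.53), Lum (0.22), Erg (0.22), Esam (-0.43) and Mesp2 (-0.45). Among the overlapping genes, Col1a2 had 1.38 and Tek -0.92. Over all genes the groups did not overlap for 23.5%. Tubb3 among 8 neuroectoderm markers and Tfap2c among 7 trophectoderm markers were lower in differentiating cells, and the other members of both lists did not pass. Of these others, Nes had a log2 fold change of 1.18 with groups that did not overlap. The overlapping Pax6, Map2, Krt8 and Krt18 had -1.13, 0.61, 1.49 and 1.57. The mean level of the neuroectoderm markers was 5.75 to 6.33 on the differentiating and 5.99 to 6.15 on the undifferentiated arrays. For the trophectoderm markers it was 7.10 to 7.80 and 6.85 to 8.04. The part of these markers in the results below was not tested.

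Of the 67 guidance genes, 3 passed and were also called, with Slit3 higher and Epha4 and Ntn1 lower in differentiating cells. Over all 18193 genes 2.25% passed in either direction, 0.511% were called higher and 0.879% were called lower, so 1 and 2 called members are small counts to set against these shares. The median log2 fold change was 0.11 over the members and 0.02 over all genes, and 40 members had a value above 0 and 27 below, where 53.6% of all genes had a value above 0. Of the members, 9 had a log2 fold change of at least 1 in size, against 4.11% of all genes. These were the 3 called genes, Sema3c, Sema3e, Efna5, Efnb2 and Unc5b with positive values, and Nrp2 with a negative one. The groups did not overlap on the arrays for 21 members (15 higher and 6 lower), against 23.5% of all genes in either direction, 10.7% higher and 12.8% lower. At an unadjusted p under 0.05 there were 17 members, against 17.2% of all genes. With 3 arrays a group, exact permutation has a smallest two-sided p of 0.1, so no single gene was tested in that way.

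**Figure D1:**
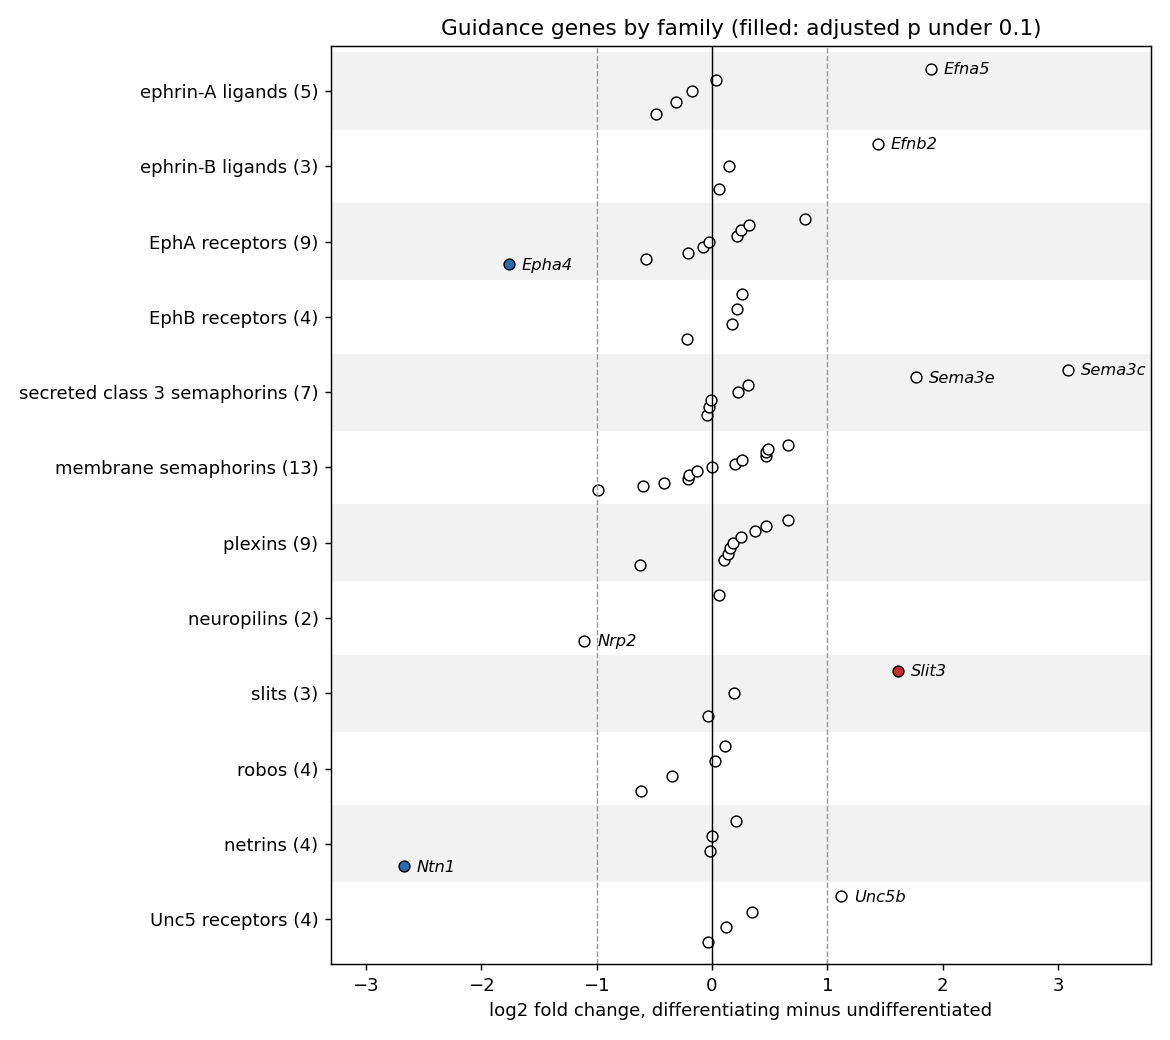
Difference in log2 value, differentiating minus undifferentiated cells (horizontal axis), for the 67 guidance genes, 1 point per gene in 12 families with the number of genes in brackets; filled points have an adjusted p under 0.1, dashed lines mark -1 and 1, and the vertical offset only separates points. Slit3 lies at 1.61, Epha4 at -1.76 and Ntn1 at -2.67, and Sema3c, which is not filled, lies at 3.08.

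Slit3 encodes a secreted ligand of the Robo receptors. Its RMA values were 7.91, 7.83 and 7.94 in differentiating replicates 1, 2 and 3, and 6.19, 6.74 and 5.92 in undifferentiated replicates 1, 2 and 3. The differentiating arrays lay close together and all above the undifferentiated arrays. The means were 7.89 ± 0.05 (SD, n = 3) and 6.28 ± 0.42 (SD, n = 3), 3.06-fold higher (limma adjusted p = 0.0503, log2 fold change 1.61 with a standard error of 0.21). This gene has a single probe set on the array. The other slit genes did not pass. Slit1 had a log2 difference of 0.19 (95% interval -0.16 to 0.54), and Slit2 one of -0.04 (95% interval -0.31 to 0.23). None of the 4 Robo receptor genes passed either. The axonal receptor gene Robo1 had values of 5.14, 6.30 and 6.05 in differentiating and 6.98, 6.12 and 6.24 in undifferentiated cells, which overlap (log2 fold change -0.61, adjusted p = 0.514). For Robo4, the Robo receptor known from endothelium, the log2 fold change was -0.35 (95% interval -1.13 to 0.43). Robo2 and Robo3 were near the low-signal reference in both groups.

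Epha4 encodes an Eph receptor that is known to bind ephrins of the A and the B class. Its values were 7.36, 6.57 and 6.62 in differentiating cells and 8.79, 8.10 and 8.92 in undifferentiated cells. Every differentiating array lay below every undifferentiated array, and differentiating replicate 1 was the nearest to them. The means were 6.85 ± 0.45 (SD, n = 3) and 8.61 ± 0.44 (SD, n = 3), 3.38-fold lower (limma adjusted p = 0.0755, log2 fold change -1.76 with a standard error of 0.29). Of the 5 Epha4 probe sets, 4 passed. The probe set of smallest p (log2 fold change -2.33, adjusted p = 0.0253) had 5.34, 4.86 and 5.29 in differentiating and 7.50, 7.21 and 7.79 in undifferentiated cells. The 2 others that passed had -1.74 (adjusted p = 0.0897) and -1.72 (adjusted p = 0.0736). At the probe sets with -2.33 and -1.72 the differentiating means, 5.17 and 4.41, lay below the low-signal reference, so these differences can understate the change. The probe set that did not pass had values of 2.90 to 3.43 on all arrays, below the low-signal reference (-0.28, adjusted p = 0.4).

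Ntn1 encodes netrin-1, a secreted cue that attracts or repels axons according to the receptor that binds it. It had 5.65, 5.34 and 5.12 in differentiating cells and 7.11, 8.32 and 8.67 in undifferentiated cells. The groups did not overlap, and undifferentiated replicate 1 was the lowest of its group. The means were 5.37 ± 0.27 (SD, n = 3) and 8.03 ± 0.82 (SD, n = 3), 6.35-fold lower (limma adjusted p = 0.0592, log2 fold change -2.67 with a standard error of 0.39). The differentiating mean equals the low-signal reference of 5.37 to the digits shown, so the fold can understate the change. The other Ntn1 probe set had 4.04 to 4.35 in differentiating and 4.23 to 5.04 in undifferentiated cells, all below the low-signal reference. It missed the threshold (-0.47, adjusted p = 0.409). The other netrin genes did not pass, with log2 fold changes from -0.02 (Ntn5) to 0.20 (Ntn4, adjusted p = 0.555), and Ntn3 and Ntn4 were near the low-signal reference.

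The windows from 250 bases before to 50 bases after the annotated start are shown for Slit3 and Epha4, the called genes with an entry in the RefSeq promoter table (build GRCm38.p6), and for Sema3c and Sema3e, the secreted semaphorin genes of largest change. Each is printed 5′ to 3′ on the gene's strand. Capitals mark CACCC on either strand, the core of the box bound by Krüppel-like factors, and TTCNNNGAA, the palindrome bound by STAT factors. The windows lie at chr11:35121206-35121505, plus strand (Slit3), chr1:77515039-77515338, minus strand (Epha4), chr5:17574566-17574865, plus strand (Sema3c) and chr5:14025026-14025325, plus strand (Sema3e).
Slit3: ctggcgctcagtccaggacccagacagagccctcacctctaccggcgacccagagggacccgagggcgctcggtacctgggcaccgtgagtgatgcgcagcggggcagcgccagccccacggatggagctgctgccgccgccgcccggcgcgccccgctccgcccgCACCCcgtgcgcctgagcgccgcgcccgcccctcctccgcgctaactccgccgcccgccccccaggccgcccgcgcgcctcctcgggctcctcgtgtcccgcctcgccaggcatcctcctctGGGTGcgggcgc
Epha4: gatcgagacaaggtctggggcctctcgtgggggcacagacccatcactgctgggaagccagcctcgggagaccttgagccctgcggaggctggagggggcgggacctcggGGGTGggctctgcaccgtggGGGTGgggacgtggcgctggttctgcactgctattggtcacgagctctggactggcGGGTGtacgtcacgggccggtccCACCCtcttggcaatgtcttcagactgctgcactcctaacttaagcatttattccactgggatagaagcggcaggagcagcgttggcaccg
Sema3c: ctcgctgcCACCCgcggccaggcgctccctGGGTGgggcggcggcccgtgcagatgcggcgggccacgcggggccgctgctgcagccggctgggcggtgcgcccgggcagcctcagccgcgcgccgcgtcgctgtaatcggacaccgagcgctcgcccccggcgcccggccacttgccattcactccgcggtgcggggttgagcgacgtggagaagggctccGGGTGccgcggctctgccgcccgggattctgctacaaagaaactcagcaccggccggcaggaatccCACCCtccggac
Sema3e: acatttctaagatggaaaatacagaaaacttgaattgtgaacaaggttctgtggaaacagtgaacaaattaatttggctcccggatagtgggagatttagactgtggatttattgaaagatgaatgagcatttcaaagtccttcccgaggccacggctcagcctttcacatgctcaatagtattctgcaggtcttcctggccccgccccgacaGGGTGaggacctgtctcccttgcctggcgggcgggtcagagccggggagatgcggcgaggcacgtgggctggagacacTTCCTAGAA
The CACCC motif occurs 2 times in the Slit3 window, 4 times in that of Epha4, 4 times in that of Sema3c and 1 time in that of Sema3e. It is present in 57.5% of all 32851 promoter windows of the table. The table holds windows of 58 member genes (74 windows), of which 78.4% have the motif, and their median GC content was 64.2%, against 52.7% over all windows. The TTCNNNGAA motif was found only in Sema3e among these 4 windows, at the end of the window downstream of the start, and is present in 8.30% of all windows and 4.05% of the member windows. A match is a description of the letters and not a measured binding site. All 4 windows carry CACCC, which 78.4% of the member windows also have. Its part in the changes of these genes was not tested.

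**Figure D2:**
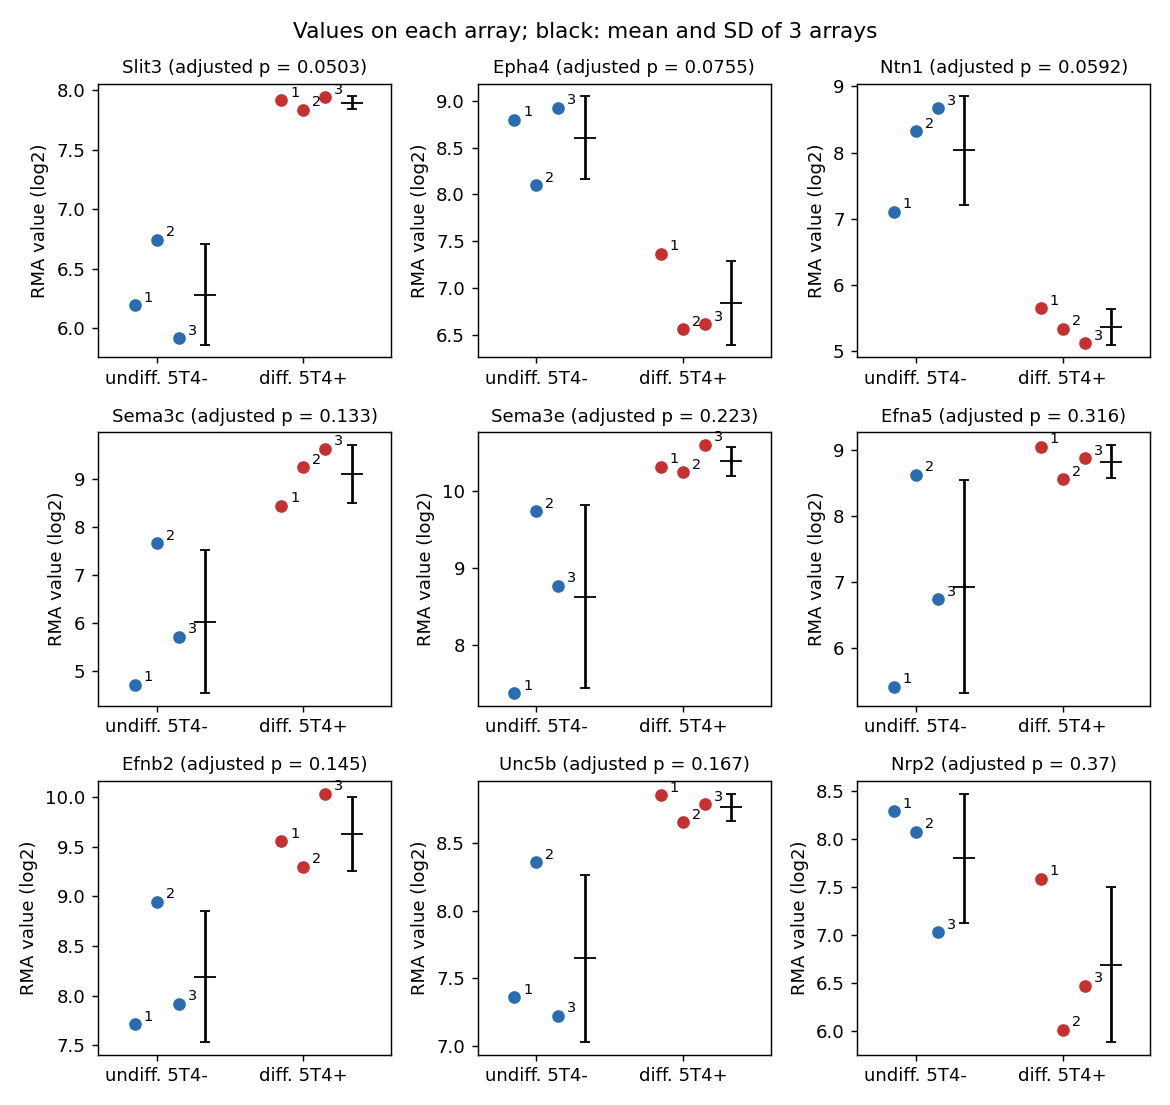
Log2 RMA value (vertical axis, scaled per gene) on each array of the 9 members with a log2 fold change of at least 1 in size, blue for undifferentiated and red for differentiating arrays; digits give the replicate, and black lines the mean and SD of 3 arrays. Undifferentiated replicate 2 is the highest of its group for Slit3, Sema3c, Sema3e, Efna5, Efnb2 and Unc5b, and for Efna5 it lies among the differentiating arrays.

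Among the members that did not pass, Sema3c had the largest difference. This gene, a class 3 semaphorin known for its role in the outflow tract of the heart, had 8.45, 9.25 and 9.63 in differentiating and 4.71, 7.66 and 5.71 in undifferentiated cells. The groups did not overlap, but the undifferentiated arrays spread over a wide range, with replicate 2 the nearest to the differentiating cells. Its difference of 3.08 on the log2 scale (95% interval 1.39 to 4.78) was the largest increase of all 18193 genes at their probe sets of highest mean, and it did not pass (standard error 0.72, adjusted p = 0.133 from limma). The other Sema3c probe set gave 1.91 (adjusted p = 0.13). Sema3e, whose product is known to signal through plexin D1 without a neuropilin, had 10.32, 10.25 and 10.60 in differentiating and 7.37, 9.74 and 8.77 in undifferentiated cells. These groups did not overlap either, and undifferentiated replicate 2 was again the highest of its group (log2 fold change 1.77, 95% interval 0.49 to 3.04, adjusted p = 0.223). All 4 Sema3e probe sets had a positive value, from 1.68 to 1.86, and none passed.

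The other 5 class 3 semaphorin genes had log2 fold changes from -0.04 (Sema3g) to 0.31 (Sema3b), and the values of Sema3f, at 9.77 to 9.98 and 9.48 to 9.74, did not overlap (0.23, adjusted p = 0.503). Sema3a, the collapsing factor of growth cones, had -0.03 (95% interval -0.36 to 0.30) with values of 4.47 to 4.90 that lie below the low-signal reference. Of the receptors of this class, Nrp2 had 7.58, 6.02 and 6.47 in differentiating and 8.29, 8.07 and 7.03 in undifferentiated cells. The groups overlapped, since differentiating replicate 1 exceeded undifferentiated replicate 3 (log2 fold change -1.11, 95% interval -2.22 to 0.01, adjusted p = 0.37). All 4 Nrp2 probe sets had a negative value. Nrp1 had a log2 difference of 0.06 (95% interval -0.25 to 0.37) and was near the low-signal reference in both groups at this probe set, and its 4 probe sets had both signs.

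None of the 9 plexin genes passed, and 8 had a log2 fold change above 0. Plexins are the signalling receptors of semaphorins. Plxnb1, a receptor of semaphorin 4D, had 8.16, 8.07 and 8.04 in differentiating and 7.59, 7.71 and 7.56 in undifferentiated cells. These values were tight and did not overlap, and the difference was small (limma adjusted p = 0.132, log2 fold change 0.47 with a standard error of 0.11). Plxnb2 had 8.82, 9.14 and 8.94 against 8.72, 8.37 and 7.82 (0.66, 95% interval 0.11 to 1.22, adjusted p = 0.28). Plxna2 was the plexin with a negative value (-0.62, adjusted p = 0.317), with 5.65, 5.47 and 5.70 in differentiating and 6.69, 5.74 and 6.26 in undifferentiated cells. Plxnd1, the semaphorin 3E receptor, had 5.03 to 5.17 and 4.81 to 5.28, near the low-signal reference in both groups (0.10, 95% interval -0.25 to 0.45).

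Membrane semaphorins of classes 4 to 7 can act as ligands and, in some cases, as receptors. None of the 13 genes passed at the probe set of highest mean, with 6 values above 0 and 7 below. Sema6a, a transmembrane ligand of plexins A2 and A4, was higher at another probe set only, where the values were 6.09, 5.91 and 6.03 in differentiating and 4.71, 5.34 and 4.82 in undifferentiated cells (log2 fold change 1.05, adjusted p = 0.0806 from limma). At its probe set of highest mean the groups did not overlap and the value was 0.46 (95% interval 0.17 to 0.76, adjusted p = 0.172), and the remaining probe set had 1.10 (adjusted p = 0.156). Sema5a had 4.69, 4.55 and 5.02 against 3.79, 4.37 and 4.14, all below the low-signal reference (0.66, adjusted p = 0.209). Sema4a, known from immune cells, had the lowest value of the class (-0.98, 95% interval -1.83 to -0.14, adjusted p = 0.291). Its undifferentiated values were 7.05, 5.54 and 6.41 and its differentiating values 5.38, 5.51 and 5.17, so that undifferentiated replicate 2 all but met the other group. Sema4g also had undifferentiated replicate 1 as the highest array, with 7.18 in undifferentiated replicate 1 against 5.45 and 5.39 in the other replicates (log2 fold change -0.20, adjusted p = 0.902).

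**Figure D3:**
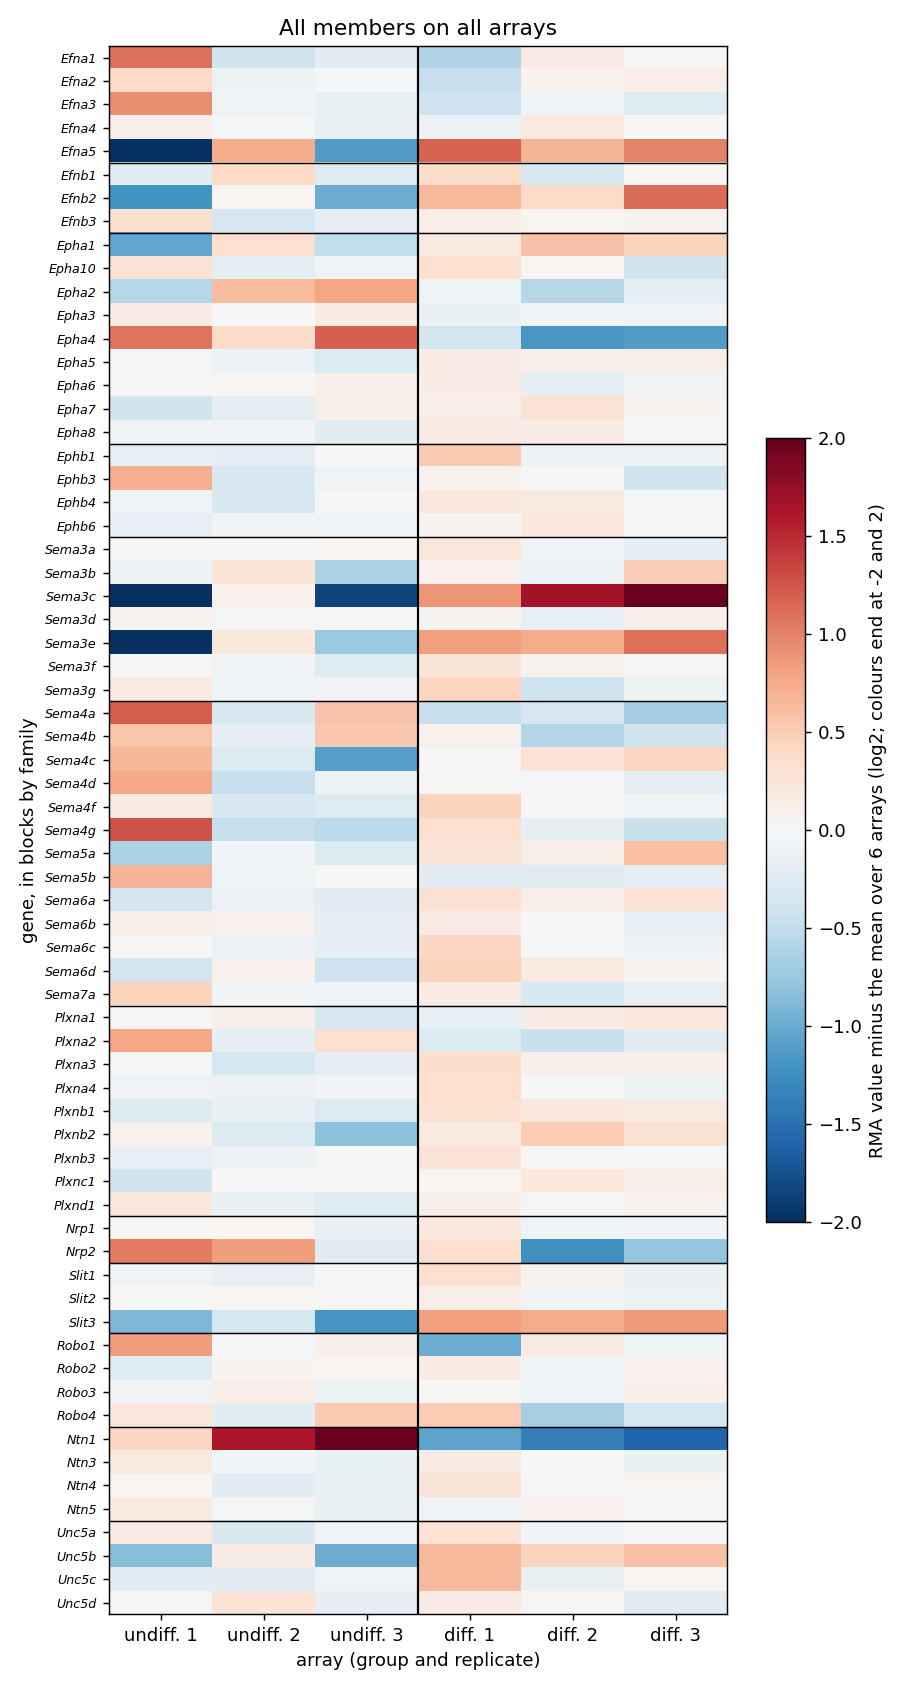
RMA value of each of the 67 guidance genes on each array, as the difference from the gene's mean over the 6 arrays (colour, log2, ending at -2 and 2); rows are genes in blocks by family and columns are arrays. Most rows are pale on all arrays, Slit3, Epha4 and Ntn1 change colour at the line between the groups, and undifferentiated replicate 2 is paler than replicates 1 and 3 for Sema3c, Efnb2 and Unc5b.

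Of the ephrin genes, none of 5 A ligands and 3 B ligands passed. Efnb2, which encodes ephrin-B2 and is known for its part in the separation of arteries from veins, had 9.55, 9.30 and 10.03 in differentiating and 7.71, 8.95 and 7.92 in undifferentiated cells. The groups did not overlap, and undifferentiated replicate 2 was the highest of its group (log2 fold change 1.44, 95% interval 0.61 to 2.26, adjusted p = 0.145). Its 4 probe sets all had a positive value, from 0.43 to 1.45. Efna5, which encodes ephrin-A5, had 9.05, 8.56 and 8.88 in differentiating and 5.42, 8.63 and 6.74 in undifferentiated cells. Undifferentiated replicate 2 lay above differentiating replicate 2, so the groups overlapped (1.90, 95% interval 0.19 to 3.61, adjusted p = 0.316). The other Efna5 probe set had values of 3.76 to 4.14 on all arrays, below the low-signal reference, and a log2 fold change of 0.11 (adjusted p = 0.777). Efna3 had 6.59, 6.94 and 6.73 against 7.93, 6.93 and 6.86, in which undifferentiated replicate 1 stands apart (-0.49, adjusted p = 0.536). Efnb1 had a log2 difference of 0.06 (95% interval -0.51 to 0.63), and Efnb3 one of 0.15 (95% interval -0.28 to 0.57).

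Apart from Epha4, the 8 EphA and 4 EphB receptor genes measured did not pass, with log2 fold changes from -0.57 (Epha2) to 0.80 (Epha1). Epha1 had 7.26, 7.67 and 7.54 in differentiating and 6.05, 7.40 and 6.60 in undifferentiated cells, and undifferentiated replicate 2 lay within the other group (adjusted p = 0.348). Epha2, a receptor of ephrin-A1 known in epithelial cells, had 8.42, 7.93 and 8.30 against 7.94, 9.14 and 9.28, in which undifferentiated replicate 1 lay at the level of the differentiating cells (95% interval -1.41 to 0.28, adjusted p = 0.552). Epha2 passed, with a negative value, without undifferentiated replicate 1, without both replicate 1 arrays and with array weights. Epha3, Epha5, Epha6 and Epha8 were near the low-signal reference in both groups. Ephb4, the receptor of ephrin-B2 in veins, had a log2 difference of 0.26 (95% interval -0.07 to 0.59, adjusted p = 0.478), and Ephb6, a receptor without kinase activity, one of 0.17 (95% interval -0.10 to 0.45) near the low-signal reference.

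Unc5b, a netrin receptor known for guiding vessel sprouts, had 8.85, 8.65 and 8.79 in differentiating and 7.36, 8.36 and 7.22 in undifferentiated cells. The groups did not overlap, and undifferentiated replicate 2 was the nearest to the differentiating cells (log2 fold change 1.12, 95% interval 0.42 to 1.81, adjusted p = 0.167). The other Unc5b probe set gave 0.48 (adjusted p = 0.245). Unc5a had 0.13 (95% interval -0.27 to 0.53), while Unc5c (0.35, adjusted p = 0.538) and Unc5d (-0.03) were near the low-signal reference. Side by side, the ligand gene Ntn1 was lower and Unc5b, 1 of its receptor genes, had a positive value that did not pass. The netrin receptor genes Dcc and Neo1 did not pass either. Their log2 fold changes were -0.05 (95% interval -0.30 to 0.20) and 0.08 (95% interval -0.76 to 0.91).

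**Figure D4:**
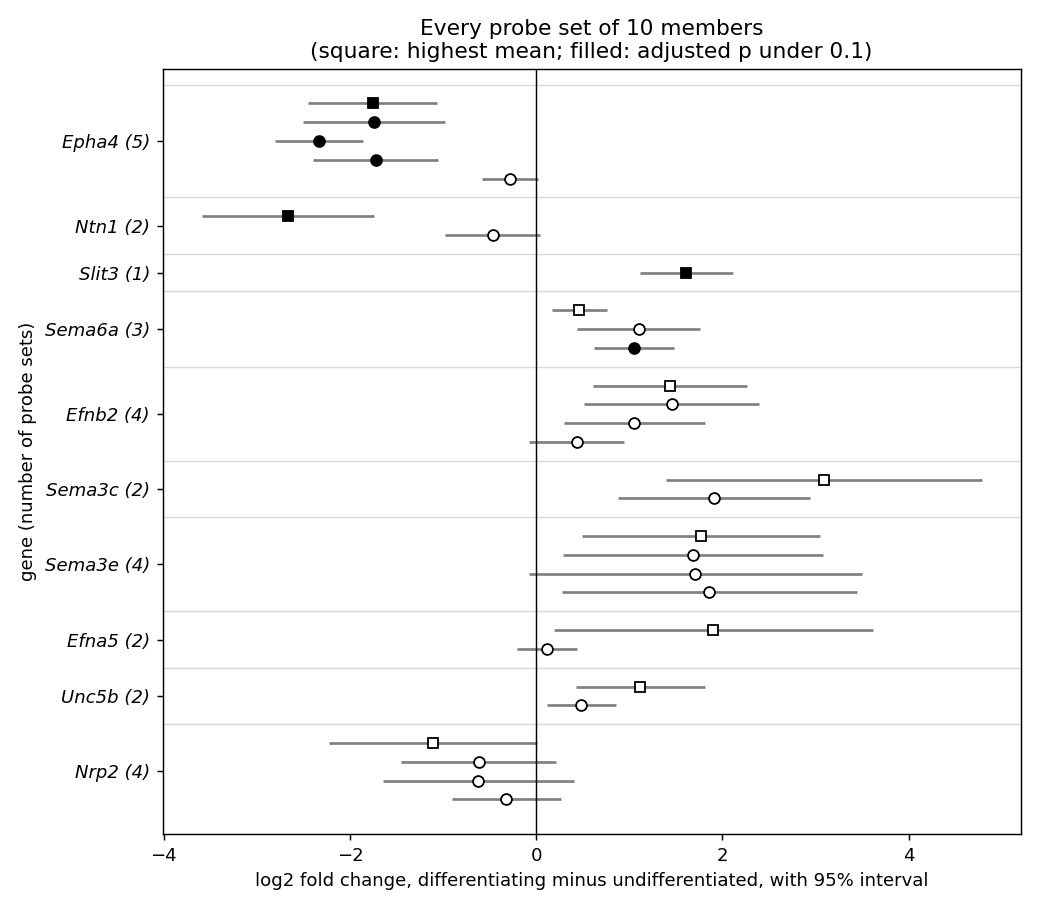
Difference in log2 value, differentiating minus undifferentiated cells (horizontal axis), with its 95% interval for every probe set of 10 members; squares are the probe set of highest mean, filled symbols have an adjusted p under 0.1, and the number of probe sets is in brackets. The 4 filled Epha4 symbols lie between -2.33 and -1.72, and 1 of 3 Sema6a symbols is filled.

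The 67 members have 148 probe sets in all, of which 2 were higher and 5 lower at an adjusted p under 0.1, against 0.573% and 1.03% of all probe sets (1.6% in either direction). Of the 44 members with several probe sets, 24 had a single sign at all of them. With the probe sets of each gene averaged before the fit, 6 members passed (3.73% of all genes): Slit3 (1.61, adjusted p = 0.0375), Sema3c (2.50, adjusted p = 0.0901), Sema6a (0.87, adjusted p = 0.0743) and Plxnb1 (0.63, adjusted p = 0.0807) were higher, and Epha4 (-1.57, adjusted p = 0.0375) and Ntn1 (-1.57, adjusted p = 0.0671) were lower.

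Undifferentiated replicate 2 was the highest undifferentiated array for all 6 members with a log2 fold change of at least 1, and for 80.5% of the 364 genes of the whole array with such an increase. It also had the highest value of Tpbg, the gene of 5T4, in its group, with 6.76 against 5.94 and 5.68, while the differentiating cells had 6.71, 7.52 and 7.97. Its part in the results was not tested. Leaving out the highest undifferentiated array must raise the log2 fold change of those 6 members, so such a fit cannot decide this. Without undifferentiated replicate 2, 11 members passed, against 4.68% of all genes. These were Slit3, Sema3c (3.90, adjusted p = 0.0285), Sema3e (2.32, adjusted p = 0.0597), Efna5 (2.75, adjusted p = 0.0418), Efnb2 (1.82, adjusted p = 0.0361), Unc5b (1.47, adjusted p = 0.0244) and Epha1, which were higher, and Ntn1, Epha4, Plxna2 and Sema4a, which were lower. Without undifferentiated replicate 1 the log2 fold change was smaller for Sema3c (2.43, adjusted p = 0.146), Sema3e (1.14, adjusted p = 0.156), Efna5 (1.14, adjusted p = 0.383) and Epha1 (0.49, adjusted p = 0.463), none of which passed. None of the members passed when differentiating replicate 2 or 3, or undifferentiated replicate 3, was left out. In each of these fits at most 3 genes of the whole array passed. In these fits the adjusted p was 0.204 to 0.285 for Slit3, 0.289 to 0.339 for Epha4 and 0.208 to 0.298 for Ntn1, each with its direction kept. The Epha4 call was lost without undifferentiated replicate 1 as well (adjusted p = 0.104).

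**Figure D5:**
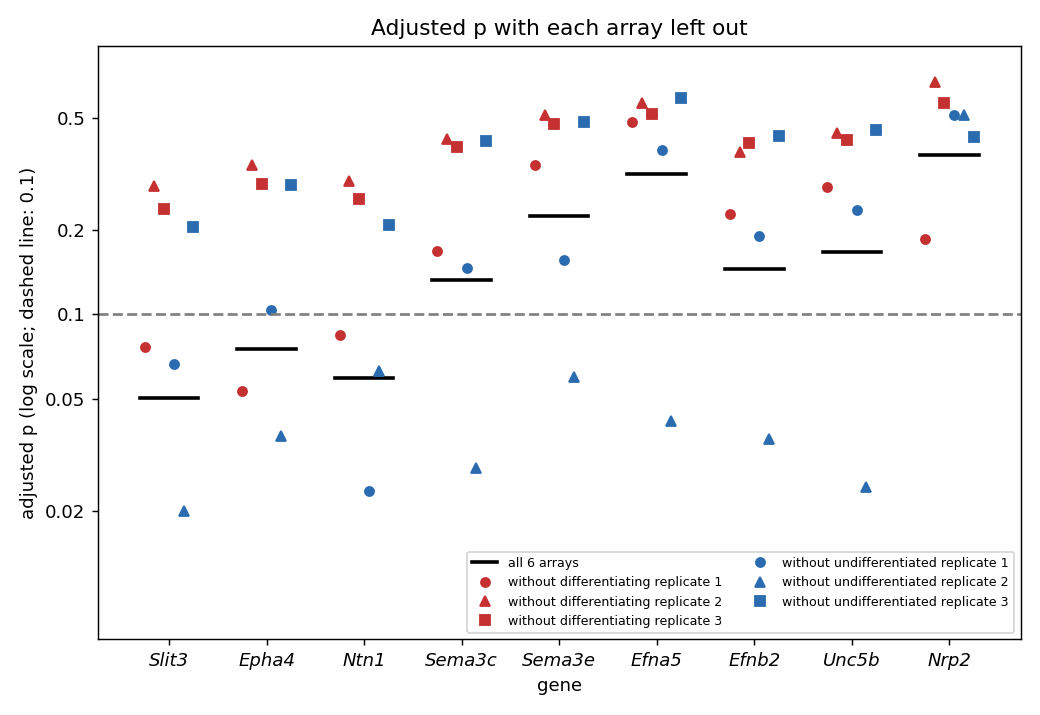
Adjusted p (vertical axis, log scale) of the 9 members with a log2 fold change of at least 1 in size, from all 6 arrays (black bars) and with each array left out (red, a differentiating array; blue, an undifferentiated array; symbols give the replicate); the dashed line is 0.1. The symbols for undifferentiated replicate 2 lie below the line for all genes but Nrp2, and those for differentiating replicates 2 and 3 and undifferentiated replicate 3 lie above it for all 9.

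Other genes of these pathways were taken from lists of further receptors and ligands and of intracellular effectors. None of the 21 other receptor and ligand genes passed at its probe set of highest mean, with 13 values above 0 and 8 below. The netrin receptor genes Dcc and Neo1 are on this list. Met, the receptor of hepatocyte growth factor and a partner of plexin B1, was higher at another probe set (log2 fold change 1.23, adjusted p = 0.0479 from limma), with 6.22, 6.37 and 6.49 in differentiating and 4.98, 5.41 and 5.01 in undifferentiated cells. The undifferentiated mean of this Met probe set, 5.13, lay below the low-signal reference. Rgmb, a ligand of neogenin, was also higher at another probe set (0.87, adjusted p = 0.0897). At their probe sets of highest mean neither passed, with 1.14 for Met (adjusted p = 0.185) and 0.60 for Rgmb (adjusted p = 0.466).

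Among 50 effector genes measured, only Rras passed, and it was higher, while 49 missed the threshold. Over all genes 2.25% passed in either direction, so 1 gene of 50 is a small count to set against this share. Rras, which encodes a small GTPase that plexins inactivate, had 9.71, 10.06 and 10.01 in differentiating and 9.04, 8.89 and 8.19 in undifferentiated cells. The groups did not overlap, and the log2 fold change was 1.22 (standard error 0.24, adjusted p = 0.0953 from limma). This call was lost without any single array other than undifferentiated replicates 1 and 2, and after median centring. At other probe sets only, Pak3, a kinase downstream of Rac and Cdc42, was higher (0.93, adjusted p = 0.0541), and Enah, an actin regulator that acts downstream of netrin and slit receptors, was lower (-1.27, adjusted p = 0.0949). At their probe sets of highest mean the values were 1.69 for Pak3 (adjusted p = 0.118) and -0.76 for Enah (adjusted p = 0.121). Met, Rgmb, Pak3 and Enah were found by searching every probe set of the listed genes. Of all probe sets tested, 1.6% passed. In RNA of sorted bulk cells, fewer cells with a transcript and less of it per cell cannot be told apart for any of these genes.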

How the data were processed

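Affymetrix mouse arrays were run for 6 samples, 3 per group. The deposited log2 values had been preprocessed by the authors with RMA in the affy library (version not given in the sources used here), 1 column per array, and were used without further transformation. After removal of 64 controls from the 45101 probe sets, 45037 entered the test, 34945 of them with 1 gene symbol, 932 with several and 9160 with none. All 67 members were found in the RefSeq gene table by gene ID, with 0 symbols changed. Ephb2 was not analysed here.

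The groups were compared with limma 3.58.1 in R 4.3.3 (lmFit, eBayes, prior degrees of freedom 2.93) without covariates, at the thresholds of the methods. Arrays give no depth, and their number limits the precision. Members, lists and tests were chosen with earlier results of these data known. Genes named are those past the test at any probe set, those with a log2 fold change of at least 1 in size, the 2 of smallest p in each of 12 families, and pathway genes past the test. Other genes were named after their values were seen. Alternatives were a replicate block, a filter on dim probe sets, control probe sets kept, other scalings, variance models, array weights, arrays left out, other thresholds and other ways to combine probe sets.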

Additional observations from a re-analysis of the deposited data

How the results depend on the processing

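The counts of 1 member called higher and 2 called lower, and of 3 past the test, were the same with the control probe sets kept, after a second quantile normalization, after median centring, with a trended robust variance and with the dimmer probe sets left out. The last setting kept 45 members. With each array left out in turn, 0 to 7 members were called higher, 0 to 3 called lower, 0 to 11 passed, and the median log2 fold change of the members was 0.0107 to 0.158. Array weights gave 5 called higher, 4 called lower and 19 past the test, where 19.7% of all genes passed. The averaged probe sets gave 2 called higher and 6 past, and the probe set of smallest p, which favours calls, gave 2 called higher. Without both replicate 1 arrays, a choice made after seeing the data, 2 were called higher, 3 called lower and 6 passed, where 10.3% of all genes passed. An adjusted p under 0.05 gave 0 higher and 0 lower, and limma's treat also gave 0 and 0. At an unadjusted p under 0.05 there were 17 members, against 17.2% of all genes.

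Whether the replicate numbers pair the samples is not known. Same-numbered arrays correlated in their deviations from the group mean with r = 0.205, -0.11 and 0.115. For differently numbered arrays r was -0.315 to 0.316. Deviations within a group of 3 arrays are not independent, so these values cannot decide whether the samples are paired. With the replicate number as a block 2 members were called higher (Slit3 and Sema3c) and 4 passed, where 2.1% of all genes passed, and Rras no longer passed.

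Nrp1, at 0.06 in the comparison, had a negative log2 fold change with array weights (-0.00364), without both replicate 1 arrays (-0.0109), with averaged probe sets (-0.0813) and at the probe set of smallest p (-0.436). With each array left out it ranged from -0.0357 to 0.114. Of the 25 genes refitted under the alternatives, those named by the rule, no other changed direction. Genes named outside the rule were not all followed in this way, and Sema3a, Slit2 and Efnb1 have probe sets of both signs. The causes were not tested. Signals near the low-signal reference limit what can be seen for 21 members.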
